A study of Mus musculus with 32 samples.

Results

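The midbrain and the medulla of Cckbr-null mice were set against each other on short-oligonucleotide arrays that read messenger RNA. Of the 32 arrays of the series, 16 came from these KO mice and were chosen by the genotype and region in their titles, 8 of midbrain and 8 of medulla. The 4 groups of 4 arrays were KO sham midbrain, KO sham medulla, KO CCI midbrain and KO CCI medulla. CCI is chronic constriction injury, a model of neuropathic pain in which ligatures are tied loosely about a sciatic nerve, and sham mice had the operation without it. Every one of the 16 arrays carries the Cckbr deletion, so nothing in the comparison of the regions itself is measured against the intact gene. The design takes both regions from each animal, which gives 8 KO animals. Strain, sex, age, the time between operation and dissection and the borders of the dissected blocks are not given in the sources used here. A region's array pools many cell types, so fewer cells of a type and less RNA per cell cannot be told apart in anything below.

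The midbrain holds the dopamine neurons of the substantia nigra and the ventral tegmental area, the periaqueductal grey and the colliculi, and its caudal end adjoins the dorsal raphe with its serotonin neurons. The medulla holds cranial motor nuclei, sensory relay nuclei and the ventromedial cell groups through which the periaqueductal grey acts on pain transmission in the spinal cord. Position along the hindbrain is set in the embryo by the nested Hox genes, which are not used in the midbrain, whereas Otx2, En1 and the Foxa factors mark the midbrain and its floor.

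The promoters of 4 genes are shown because they belong to genes with large and opposite regional differences. Each is the 250 bases before the start site, read 5′ to 3′ on the gene's own strand from the RefSeq promoter table of GRCm38.p6. Slc6a3 lies at chr13:73536497-73536746 (+ strand), Th at chr7:142899996-142900245 (- strand), Cartpt at chr13:99900684-99900933 (- strand) and Hoxa5 at chr6:52204588-52204837 (- strand). Capitals mark matches to any of 4 motifs searched on both strands, the cAMP response element TGACGTCA, the TATA box TATAAA, the E-box CACGTG and the GC box GGGCGGG. Lower case is all other bases.
Slc6a3: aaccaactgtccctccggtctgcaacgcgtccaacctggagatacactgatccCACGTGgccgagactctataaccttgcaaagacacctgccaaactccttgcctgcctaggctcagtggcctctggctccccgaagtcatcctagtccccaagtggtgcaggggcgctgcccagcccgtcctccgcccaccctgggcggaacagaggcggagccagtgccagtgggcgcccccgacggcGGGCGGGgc
Th: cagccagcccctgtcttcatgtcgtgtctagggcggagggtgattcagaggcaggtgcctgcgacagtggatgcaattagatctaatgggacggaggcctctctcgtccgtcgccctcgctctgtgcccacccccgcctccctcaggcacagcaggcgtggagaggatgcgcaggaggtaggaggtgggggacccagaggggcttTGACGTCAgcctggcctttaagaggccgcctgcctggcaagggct
Cartpt: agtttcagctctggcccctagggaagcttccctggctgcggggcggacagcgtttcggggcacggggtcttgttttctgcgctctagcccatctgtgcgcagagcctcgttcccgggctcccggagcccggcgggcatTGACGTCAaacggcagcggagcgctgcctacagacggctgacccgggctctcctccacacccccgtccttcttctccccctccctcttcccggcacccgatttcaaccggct
Hoxa5: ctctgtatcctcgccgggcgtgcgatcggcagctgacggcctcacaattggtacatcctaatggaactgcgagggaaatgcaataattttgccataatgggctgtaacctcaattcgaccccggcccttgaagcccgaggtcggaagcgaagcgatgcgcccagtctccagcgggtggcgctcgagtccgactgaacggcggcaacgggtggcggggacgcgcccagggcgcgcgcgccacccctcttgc
The Slc6a3 window holds the E-box, whose first base is at position -197 from the start site, and a GC box at position -9. The Th window holds a cAMP response element at position -45, and the Cartpt window holds one at position -112. None of the 4 motifs was found in the Hoxa5 window. Promoters were on file for 27 of the 37 genes that were at least 2-fold higher in midbrain and for 29 of the 47 that were at least 2-fold higher in medulla. The cAMP response element was present in 2 of those 27 (Th and Cartpt) and in 0 of those 29, against 2.53% of the 9887 promoters of all genes tested. The GC box was present in 13 of the 27 and 11 of the 29, against 42.8%. The E-box was present in 3 of the 27 and 1 of the 29 (9.19% of all), and the TATA box in 6 of the 27 and 7 of the 29 (10.7% of all). These are matches of letters, and no binding was measured.

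The targeted gene was read first. On the brighter of its 2 probe sets, the lowest, median and highest Cckbr intensities were -1.49, 7.9 and 12.9 over the 8 KO midbrain arrays and 5.92, 10.9 and 24.1 over the 8 KO medulla arrays. In control mice the same probe set read 122 to 177 in midbrain and 137 to 200 in medulla. On this probe set all KO arrays therefore lay below all control arrays, and within KO mice the regions did not differ past the threshold (log2 difference -0.26, SE 0.14, adjusted p = 0.298 by limma's moderated test). The dimmer probe set read -5.12 to 14.2 in KO midbrain and 13.3 to 42.5 in control midbrain, which overlap. In medulla it read -15.8 to 19.9 in KO and 24.5 to 39.6 in control mice. The KO regions did not differ past the threshold on it either (log2 difference 0.09, adjusted p = 0.851). The position of these probes against the deletion was not analysed here.

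Array medians in KO mice lay between 91.1 and 99.7 intensity units, and the number of arrays, 8 per region, limits the precision: the median SE of a regional log2 difference was 0.107. A set of 3 arrays stood apart on the principal components of the 16. KO sham medulla 3 read high for cerebellar granule and Purkinje cell genes: the summed intensity of 13 cerebellar markers was 14400 there, against 5750 to 7020 on the other 7 medulla arrays and 4940 to 5420 in midbrain. KO sham midbrain 2 had a log2 ratio of 1.602 between the 3′ and 5′ Actb control probe sets, against 0.364 to 0.775 on the other KO arrays, a sign of RNA quality. KO sham midbrain 4 read high for the choroid plexus gene Ttr (5210, with 268 to 2220 on the other 7 midbrain arrays). By array number KO sham medulla 3 and KO sham midbrain 4 come from the same animal, though not by title number. They had the largest shares of values at or below 0, 4.57% and 3.16%, against 1.84% to 2.31% on the other KO arrays. KO CCI medulla 1, which did not stand apart on those components, read low for choroid plexus genes, with a summed intensity of 1780 over 14 markers against 7310 to 11500 on the other 7 medulla arrays. KO sham medulla 4 read lowest of the medulla arrays for Hoxa5, Hoxb5 and Hoxb6. List counts were repeated without KO sham medulla 3, without KO sham midbrain 2 and 4, and without all 3. They are given beside some of the lists below, and other lists also moved by a few calls. In each of these settings the share of all genes called rose too, as given with the medullary transcription factors below.

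Midbrain and medulla differed at many genes in KO mice. Of 22626 probe sets, 1874 passed an adjusted p under 0.05 (8.28% of those tested), 846 higher in midbrain (3.74%) and 1028 higher in medulla (4.54%). With 1 probe set per gene, 593 genes were higher in midbrain and 646 in medulla of 12393 (10% called in all, 4.78% and 5.21% by direction). The counts of gene lists below are to be set beside these shares. A difference of at least 2-fold was reached by 37 genes in midbrain and 47 in medulla (0.678% of genes together). For 231 genes every midbrain array lay above every medulla array (1.86%), and for 236 the reverse held (1.9%). In sham mice alone 678 probe sets passed (3.0%), and in CCI mice alone 555 passed (2.45%). Within the arrays of 1 array code, 8 arrays each, 323 passed for the lower code and 139 for the higher, and 310 and 134 of these were among the 1874. Without KO sham medulla 3, KO sham midbrain 2 and KO sham midbrain 4, chosen after seeing the data, 3217 probe sets passed.

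**Figure D1:**
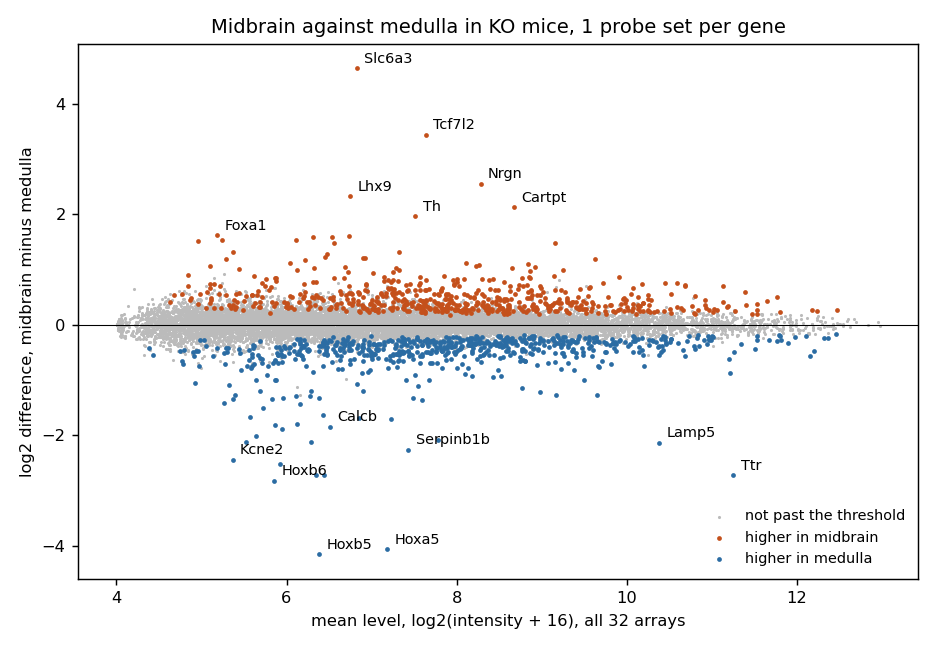
Log2 difference between midbrain and medulla (y axis, positive where midbrain is higher) against mean log2 level over all 32 arrays (x axis) for 12393 genes in KO mice, 1 point per gene, orange and blue where the adjusted p is under 0.05. Slc6a3 at 4.64 lies furthest to the midbrain side and Hoxb5 at -4.16 and Hoxa5 at -4.06 furthest to the medulla side.

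Genes of dopamine neurons included Slc6a3, which had the largest difference of all genes tested. Of 20 measured genes on that list, 10 were higher in midbrain and 2 in medulla, with a median log2 difference of 0.31 against 0.02 over all genes. Slc6a3, the plasma membrane dopamine transporter, read 480, 581 and 686 (lowest, median and highest of 8 arrays) in midbrain and -7.6, 7.45 and 14.6 in medulla. The ranges were far apart, and the medulla values were at background, so no fold is given for a log2 difference of 4.64 (SE 0.10, adjusted p = 3.16e-13). Th, the rate-limiting enzyme of catecholamine synthesis, read 302, 331 and 369 in midbrain and 45.7, 72.5 and 109 in medulla, a 3.91-fold difference (SE of log2 0.10, adjusted p = 8.51e-09) without overlap. The medulla has catecholamine neurons of its own, and the Th probe set read at least 45.7 on every medulla array. Ddc, the decarboxylase shared by dopamine and serotonin synthesis, read 761, 921 and 996 in midbrain and 243, 323 and 382 in medulla (2.79-fold, SE of log2 0.09). Drd2, the autoreceptor of these neurons, was 1.71-fold higher in midbrain, and Chrna6, a nicotinic receptor subunit they carry, 2-fold, both without overlap of the arrays. The transcription factors of the same neurons split. En1 read 33.9, 45.6 and 65.9 in midbrain and at most 13.8 in medulla (log2 difference 1.53, adjusted p = 2.75e-06). Foxa2, a floor plate factor, was higher in midbrain by a log2 difference of 0.75 (SE 0.09), and Otx2, the forebrain and midbrain homeobox factor, was 2.33-fold higher (adjusted p = 0.00404) with overlapping arrays, at 81.9 to 163 in midbrain and 11.3 to 88.1 in medulla. Pitx3, a factor required by nigral neurons, read 45.1 ± 12.3 in midbrain and 40.6 ± 15.8 in medulla (SD, n = 8) and did not pass (adjusted p = 0.772). Nr4a2, another factor of these neurons, did not pass on its brighter probe set (log2 difference -0.02, SE 0.14), but its dimmer probe set was higher in midbrain by 0.87 (adjusted p = 0.000309), so the probe sets disagree. The 2 list genes higher in medulla were Sncg, gamma-synuclein, which is also abundant in sensory and motor neurons (1.75-fold, adjusted p = 0.000109, no overlap), and Aldh1a1, a retinaldehyde dehydrogenase, by a log2 difference of -0.20 (adjusted p = 0.0351). The Aldh1a1 call was lost in 16 of 31 alternatives, with adjusted p from 0.00567 to 0.345 over them. Without KO sham midbrain 2 and 4 the list counts were 9 and 1.

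Serotonin neuron genes showed 3 of 7 measured members higher in midbrain and 1 in medulla. Slc6a4, the serotonin transporter, read 137, 159 and 188 in midbrain and 42.2, 61.9 and 75.5 in medulla, a 2.31-fold difference (SE of log2 0.10, adjusted p = 1.93e-06) with no overlap. Gata3, a factor of serotonin and of midbrain GABA neurons, was 2.99-fold higher in midbrain (111 to 172 against 21.3 to 58.9), and Gata2, its relative, 1.36-fold (adjusted p = 0.0249). The Gata2 call was lost in 9 of 31 alternatives, and the list counts without KO sham midbrain 2 and 4 were 2 and 1. Htr5b, a serotonin receptor, was the list gene higher in medulla (log2 difference -1.27, SE 0.24, adjusted p = 0.00306), at 14.1 to 103 there and 7.46 to 17.5 in midbrain, with its lowest medulla values on KO CCI medulla 2 (14.1) and KO sham medulla 4 (21.7).

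Noradrenaline and adrenaline neuron genes, which belong to cell groups of pons and medulla, passed at 1 gene in each direction of 9 measured (22.2%, with 10% of all genes). Dbh, the enzyme that makes noradrenaline, read 97.9, 135 and 177 in midbrain and 35.3, 125 and 157 in medulla, with overlapping arrays and no call (adjusted p = 0.597). Slc6a2, the noradrenaline transporter, read 52.7 ± 6.89 and 50.9 ± 10.3 (SD, n = 8) in midbrain and medulla (adjusted p = 0.953). Phox2a, the factor that specifies these neurons, read 26.7 ± 9.74 and 37.4 ± 7.30, and its adjusted p of 0.109 became 0.0455 with the animal as a block. Pnmt, the adrenaline-making enzyme, had a log2 difference of 0.36 on its brightest probe set, with an adjusted p of 0.0941 that became 0.0488 with the animal as a block. Tfap2b, an AP-2 transcription factor also found in midbrain GABA neurons, was higher in midbrain (log2 difference 0.84, SE 0.12), and Gal, the neuropeptide galanin, was 2.31-fold higher in medulla (103 to 200 against 46.6 to 72.7, adjusted p = 2.89e-06).

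Transcription factors of the midbrain and diencephalon gave some of the widest gaps. Of 37 measured midbrain patterning factors, 11 were higher in midbrain and 2 in medulla. Tcf7l2, a Wnt effector that marks thalamus, pretectum and dorsal midbrain, read 378, 556 and 1550 in midbrain and -2.82, 56.3 and 81.3 in medulla, a 10.8-fold difference (SE of log2 0.32, adjusted p = 3.79e-06). Its highest value was on KO sham midbrain 2, and without that array the log2 difference was 3.26 (adjusted p = 7.74e-06). The other 3 Tcf7l2 probe sets passed in the same direction. Foxa1, a floor plate factor, read 26.5 to 73.6 in midbrain and 0.649 to 8.68 in medulla (log2 difference 1.62, SE 0.14). Tal1, a factor of midbrain GABA neurons together with Gata2 and Gata3, was 2.79-fold higher in midbrain (110, 133 and 195 against 19.6, 40.9 and 57.8, adjusted p = 3.82e-06). Outside that list, Lhx9 read 191, 225 and 238 in midbrain and 17, 31.1 and 46.9 in medulla (log2 difference 2.33, SE 0.09, adjusted p = 5.38e-10). Lhx2, Lhx8 and Tfap2d, a further AP-2 factor of the dorsal midbrain, had log2 differences of 1.59, 1.52 and 1.54, and for each every midbrain array lay above every medulla array. Against these, Meis1 and Meis2, partners of Hox proteins, were on the midbrain list and were higher in medulla, 2.14-fold and 1.51-fold, without overlap.

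**Figure D2:**
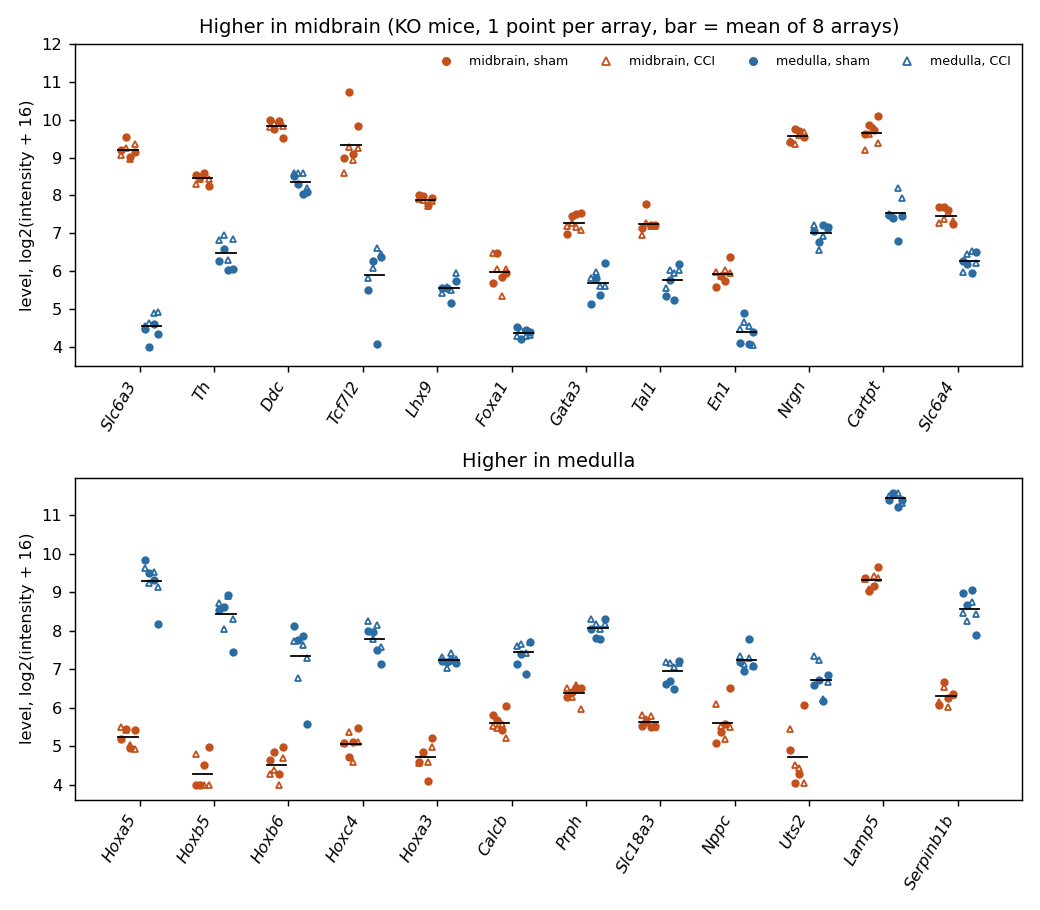
Log2 level (y axis) of 24 genes on each of the 16 KO arrays, midbrain in orange and medulla in blue, circles for sham and triangles for CCI mice, bars at the mean of 8 arrays. The genes were chosen with these values known, so the lack of overlap between the regions for every gene shown is no separate result. Over all genes it held for 1.86% on the midbrain side and 1.9% on the medulla side. The gap is narrow for Uts2, with 53.2 as the lowest medulla and 50.8 as the highest midbrain intensity.

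The Hox genes separated by their number along the clusters. Of 31 measured Hox genes, 12 were higher in medulla and 0 in midbrain (38.7% called). Paralogue groups 2 to 6 accounted for 11 of the 12 calls, among 12 measured genes, and for 10 of these every medulla array lay above every midbrain array. Hoxa5 read 266, 665 and 900 in medulla and 15.1, 23.7 and 28.9 in midbrain (log2 difference -4.06, SE 0.19, adjusted p = 2.40e-09). Hoxb5 read 156, 364 and 473 in medulla and -12.6, -1.52 and 14.2 in midbrain (log2 difference -4.16, SE 0.22). Both ranges are wide in medulla, with the lowest values on KO sham medulla 4, and do not touch the midbrain values. Hoxc4, Hoxb2 and Hoxa3 had log2 differences of -2.73, -2.71 and -2.52, each at background in midbrain. Hoxb6 read 32.2, 194 and 260 in medulla and at most 14.2 in midbrain (log2 difference -2.82, SE 0.30), and without KO sham medulla 4 the difference was -3.12. Hoxb3, Hoxa4 and Hoxa2 differed by -1.89, -1.81 and -1.68. Hoxc5 (-1.0) overlapped between the regions, and Hoxb4 was 1.63-fold higher in medulla (99.3 to 172 against 50.6 to 92.9) on its brighter probe set, with no difference past the threshold on its dimmer one (0.01). Hoxc6 was the gene of groups 2 to 6 that did not pass, at 67.1 ± 15.8 in medulla and 65.2 ± 15.4 in midbrain (SD, n = 8). Of the 17 genes of groups 7 to 13, which pattern the spinal cord, none passed, with log2 differences from -0.51 to 0.47 and mean medulla intensities of 6.22 to 55.1. Hoxb9 came nearest on the midbrain side (adjusted p = 0.0858) and Hoxd11 on the medulla side (0.152). In paralogue group 1, Hoxd1 passed (log2 difference -0.66, adjusted p = 0.00198) and Hoxb1 did not. The list count in medulla was 12 under each of the 10 alternatives in which lists were counted, and 1 midbrain call appeared without KO sham medulla 3. Lists were not counted within an array code, and in the higher array code alone Hoxa4, Hoxb4, Hoxb6, Hoxc5 and Hoxd1 each lost the call. Hoxb9 passed on the midbrain side without KO CCI midbrain 1 (adjusted p = 0.046) or without KO sham midbrain 1 (adjusted p = 0.0451).

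**Figure D3:**
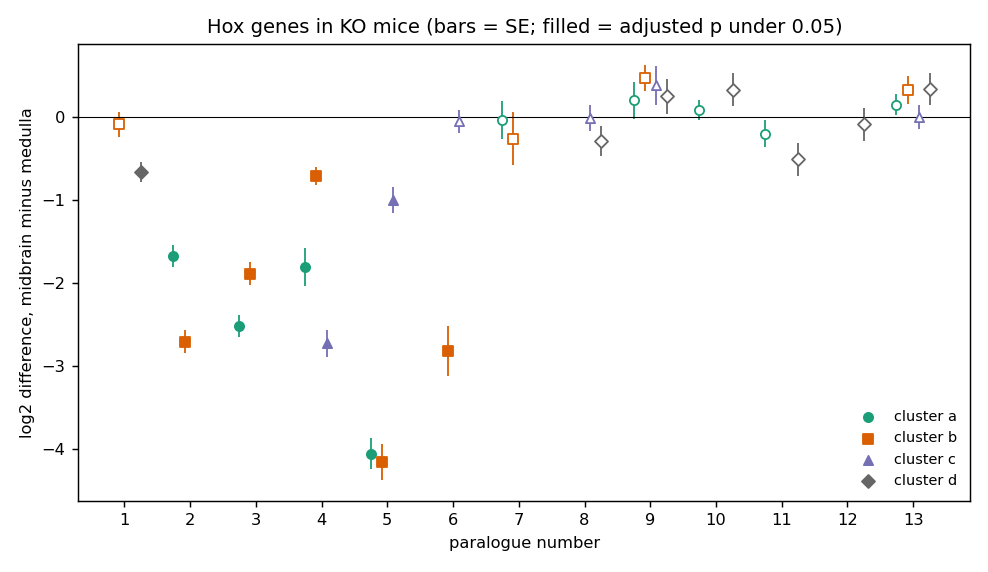
Log2 difference between midbrain and medulla in KO mice (y axis, negative where medulla is higher, bars show the SE) for 31 Hox genes by paralogue number (x axis) and cluster (colour and symbol), filled where the adjusted p is under 0.05. Genes numbered 2 to 6 reach -4.16, and those numbered 7 to 13 lie between -0.51 and 0.47.

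Few of the other transcription factors assigned to the medulla passed. Of 28 measured, Lbx1 was higher in medulla and Barhl1 in midbrain (7.14% called, with 10% of all genes). This order turned without the arrays that stood apart. It was 14.3% against 12.5% of all genes without KO sham medulla 3, 17.9% against 11.9% without KO sham midbrain 2 and 4, and 25% against 16.3% without all 3, where 2 were higher in midbrain and 5 in medulla. Lbx1, which marks dorsal hindbrain and spinal interneurons, read 80.8, 87.6 and 112 in medulla and 21.7, 28.2 and 46.8 in midbrain, with no overlap (log2 difference -1.28, SE 0.10, adjusted p = 9.65e-07).

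Cholinergic and cranial motor neuron genes were higher in medulla at 8 of 17 measured members and in midbrain at 0 (median log2 difference -0.48). Calcb, beta-CGRP, a peptide of motor neurons, read 96.7, 171 and 194 in medulla and 22, 31.7 and 49.5 in midbrain (3.59-fold, SE of log2 0.12, adjusted p = 6.78e-08). Prph, the intermediate filament peripherin, read 197, 264 and 311 in medulla and 48.6, 70.5 and 81 in midbrain (3.25-fold, SE of log2 0.10), although its 3 dimmer probe sets did not pass. Slc18a3, the vesicular acetylcholine transporter, was 2.50-fold higher (69.7 to 132 against 28.6 to 42.3), and Slc5a7, the choline transporter of the same terminals, differed by -0.75 (adjusted p = 0.00225) with overlapping arrays. The neurofilament genes, which large-calibre axons express most, went the same way: Nefh was 1.84-fold, Nefm 1.47-fold and Nefl 1.39-fold higher in medulla, each without overlap. Chodl, a marker of fast motor neurons, was 1.80-fold higher (115 to 204 against 56.3 to 113). Isl1, Isl2 and Mnx1, which specify motor neurons in the embryo, were among the 9 that did not pass.

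Neuropeptide genes were split between the regions, 8 of 33 higher in midbrain and 6 in medulla (42.4% called). Cartpt, the CART peptide precursor, read 577, 796 and 1110 in midbrain and 89.8, 161 and 283 in medulla (4.38-fold, SE of log2 0.14, adjusted p = 7.72e-08). Cck, the ligand of the missing receptor, read 640, 759 and 991 in midbrain and 331, 419 and 472 in medulla, a 1.84-fold difference (SE of log2 0.10, adjusted p = 2.86e-05) without overlap. Grp, gastrin-releasing peptide, and Tac1, the substance P precursor, were 1.79-fold and 1.55-fold higher in midbrain. In medulla, Nppc, C-type natriuretic peptide, read 110, 128 and 198 against 18.6, 31 and 76.5 in midbrain (3.08-fold, adjusted p = 4.38e-05). Uts2, urotensin 2, a peptide of cranial motor neurons, read 53.2, 88.9 and 149 in medulla and 0.341, 7.06 and 50.8 in midbrain (log2 difference -2.01, SE 0.28). Both peptides had their highest midbrain value on KO sham midbrain 4. Penk, the enkephalin precursor, was 1.77-fold higher in medulla (771 to 992 against 391 to 520). Of the 12 opioid and cholecystokinin genes, Penk was higher in medulla and Cck and Pnoc, the nociceptin precursor, in midbrain. The opioid receptor genes Oprm1, Oprd1, Oprk1 and Oprl1 and the other cholecystokinin receptor, Cckar, did not pass.

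Of 7 genes of GABA synthesis and transport 2 were higher in midbrain and 0 in medulla. Gad1, which makes GABA, read 1850, 2020 and 2160 in midbrain and 1110, 1230 and 1510 in medulla (1.65-fold, SE of log2 0.07, adjusted p = 8.72e-06), without overlap. Gad2 did not pass (226 ± 45.4 against 182 ± 29.5, SD, n = 8), and neither did Slc32a1, the vesicular transporter used by GABA and glycine (912 ± 27.6 against 1010 ± 70.5). Of 10 glycine genes 3 were higher in medulla and 0 in midbrain, with a median log2 difference of -0.02, and 2 were higher in medulla under median centring or no normalization. Slc6a9, the glial glycine transporter, was 1.46-fold higher in medulla without overlap, and Glrb, the glycine receptor beta subunit, 1.24-fold (adjusted p = 0.0192). Glra1, the adult alpha subunit, differed by -0.53 (adjusted p = 0.0369), a call lost in 17 of 30 alternatives. Slc6a5, the transporter that defines glycine neurons, was near background in both regions (15.2 ± 7.14 and 22.2 ± 8.49) and did not pass. Of 12 GABA-A receptor subunits, Gabrb1 (1.32-fold) and Gabrg1 were higher in midbrain (16.7% called, with 10% of all genes).

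Of 19 glutamate genes 6 were higher in midbrain and 1 in medulla (36.8% called, with 10% of all genes). Gria2, the AMPA receptor subunit that sets calcium permeability, was 1.66-fold higher (1290 to 1600 against 818 to 966, adjusted p = 3.08e-06). Gria1 was 1.54-fold higher, with 1 overlapping medulla array, KO sham medulla 3 at 689. Slc17a6, the vesicular glutamate transporter of subcortical neurons, was 1.26-fold higher without overlap on its brighter probe set. Its dimmer one did not pass (log2 difference 0.32, adjusted p = 0.207). The astrocyte glutamate transporters went opposite ways, Slc1a3 1.33-fold higher in midbrain (adjusted p = 0.0289, lost in 12 of 31 alternatives) and Slc1a2 1.36-fold higher in medulla (adjusted p = 0.00985).

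Ion channel genes were distributed unevenly. Scn2a, a sodium channel of unmyelinated axons, and Scn3b, an accessory subunit, were 1.82-fold and 1.83-fold higher in midbrain without overlap, and Scn8a, the channel of nodes of Ranvier, was 1.23-fold higher in medulla (adjusted p = 0.0446, lost in 14 of 31 alternatives). Of 36 potassium channel genes, 2 were higher in midbrain and 8 in medulla. Kcna1, a channel beside the nodes of myelinated axons, read 1240 to 1640 in medulla and 670 to 979 in midbrain (1.69-fold, adjusted p = 2.01e-05), Kcnab1, an auxiliary subunit of that family, was 1.59-fold higher, and Kcnj10, the inward rectifier of glia, 1.41-fold. Kcnk2, a background channel, was 1.77-fold higher in midbrain (329 to 464 against 190 to 255). Without the 3 arrays that stood apart, where more of all genes passed, the potassium channel counts were 6 in midbrain and 9 in medulla. Calcium-binding protein genes passed at 5 in midbrain and 3 in medulla of 17, or 5 and 5 without those arrays, among them Hpca, hippocalcin (1.70-fold higher in midbrain), and Pvalb, parvalbumin (1.53-fold higher in medulla, 2540 to 3050 against 1680 to 2060).

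Axon guidance genes passed at 4 members in each direction of 33. Without the 3 arrays that stood apart, where more of all genes passed, 7 were higher in midbrain and 3 in medulla. Sema3a, a repulsive secreted semaphorin, was 2.11-fold higher in medulla (128, 152 and 181 against 55.1, 63.3 and 75.8, adjusted p = 4.03e-07), on all 3 of its probe sets. Plxnc1, a semaphorin receptor, Ntng1, netrin G1, and Sema3f were 1.82-fold, 1.76-fold and 1.71-fold higher in midbrain. Beyond the axon guidance list, Nrgn, the calmodulin-binding protein neurogranin and a member of the forebrain list below, was 5.87-fold higher in midbrain (648, 759 and 811 against 78.5, 121 and 134, adjusted p = 5.38e-10). Lamp5, a membrane protein of neuronal vesicles, read 2390, 2790 and 3140 in medulla and 483, 638 and 829 in midbrain (4.38-fold, SE of log2 0.09, adjusted p = 8.39e-10). Serpinb1b, a serine protease inhibitor, was 4.78-fold higher in medulla (215 to 510 against 51.5 to 81.5).

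Myelin and astrocyte genes were higher in medulla more often than in midbrain. Of 19 oligodendrocyte genes 10 were higher in medulla and 0 in midbrain (median log2 difference -0.30). Gjb1, connexin 32 of myelinating cells, was 1.64-fold higher (287 to 405 against 177 to 227), and Mog and Mag 1.42-fold and 1.37-fold. Mbp read 7920 ± 283 in medulla and 7690 ± 380 in midbrain (SD, n = 8), with a log2 difference of 0.05 after normalization, and did not pass. Of 21 astrocyte genes 7 were higher in medulla and 3 in midbrain, or 6 and 1 without KO sham midbrain 2 and 4. Gfap, the astrocyte filament, read 752, 977 and 1500 in medulla and 527, 602 and 683 in midbrain (1.67-fold, adjusted p = 0.000522), S100b was 1.47-fold and the amino acid transporter Slc7a10 1.45-fold higher, and the water channel Aqp4 1.20-fold (adjusted p = 0.0208). Of 20 microglia markers 0 passed, or 1 with the animal as a block, and summed microglial intensity was 4340 to 5110 in midbrain and 4280 to 5290 in medulla. Of 20 pan-neuronal genes 3 were higher in midbrain and 2 in medulla. These counts were 5 and 0 without KO sham midbrain 2 and 4, and 5 and 1 with the animal as a block. Their summed intensity had a median of 32500 in each region. Endothelial and mural markers passed at 1 in midbrain and 4 in medulla of 21. Without KO sham midbrain 2 and 4, where more of all genes passed, their counts were 3 and 6. Red cell and granulocyte genes passed at 0 of 9, or 1 with the animal as a block.

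Markers of structures next to the dissected blocks differed as well. Choroid plexus markers, which line the roof of the fourth ventricle, were higher in medulla at 11 of 14 measured members and in midbrain at 1, Otx2 (85.7% called). Ttr, transthyretin, read 268, 1110 and 5210 in midbrain and 1480, 8660 and 9130 in medulla, a 6.61-fold difference (SE of log2 0.41, adjusted p = 0.000522) with overlapping arrays. Without KO CCI medulla 1 its log2 difference was -3.04 against -2.73 with all arrays. Kcne2, a potassium channel subunit of this epithelium, was at background in midbrain (-3.85 to 6.17) and read 8.79, 98.7 and 223 in medulla, and Kl, klotho, read 24.6 to 361 in medulla and 5.81 to 39.1 in midbrain. F5, Folr1 and Sostdc1 had log2 differences of -2.12, -1.80 and -1.69 with overlapping arrays. Among medulla arrays these genes varied widely, and KO CCI medulla 1 and KO sham medulla 3 were low for Kl, Folr1 and Kcne2. The part of the amount of choroid plexus on each array in these differences was not tested. Cerebellar markers passed at 1 in midbrain and 2 in medulla of 13. These counts were 2 and 4 without KO sham medulla 3, and 0 and 1 without KO sham midbrain 2 and 4. Gabra6, a receptor subunit typical of cerebellar granule cells, read 1080 on KO sham medulla 3 and 30.5 to 113 on the other medulla arrays, and Neurod1 read 879 there and 76.7 to 122 elsewhere in medulla. Neither passed with all arrays (adjusted p = 0.109 and 0.115), and without KO sham medulla 3 both did, Gabra6 at -0.82 (adjusted p = 0.0489) and Neurod1 at -0.62 (adjusted p = 0.0441). Cbln1, a synaptic organiser secreted by granule cells, was 1.58-fold higher in medulla (adjusted p = 0.0332), which became 0.0561 with the animal as a block. Cbln1 read 1280 on KO sham medulla 3 and 392 to 554 on the other medulla arrays, and its call was lost in 14 of 31 alternatives, with log2 differences of -0.88 to -0.44 over them.

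On the midbrain side, thalamus markers were higher in midbrain at 7 of 13 members and in medulla at 0, among them Tcf7l2, Lhx9 and Rgs16, which regulates G proteins (25.2, 44.2 and 91.2 against 5.31, 10.2 and 14.3). Forebrain markers were higher in midbrain at 5 of 13, Nrgn and Lhx2 among them, and in medulla at 1. The summed intensity of the forebrain markers was 2170 to 2920 in midbrain and 1250 to 1520 in medulla, without overlap. That sum includes Nrgn, with means of 743 in midbrain and 114 in medulla, and 7 of the 13 members did not pass. It is therefore no separate result across the list. Tnnt1, slow skeletal troponin T, which is also transcribed in thalamus, was 3.05-fold higher in midbrain (103, 154 and 345 against 18, 42.2 and 58.1), and both Rgs16 and Tnnt1 were highest on KO CCI midbrain 1. Meningeal and fibroblast markers were higher in midbrain at 7 of 19 and in medulla at 1, Igfbp2 (adjusted p = 0.0374). The Igfbp2 call was lost in 14 of 31 alternatives, among them the one without KO sham midbrain 2 and 4. Fmod, fibromodulin, was 1.94-fold higher in midbrain (155 to 269 against 38.8 to 144), and Aldh1a2 1.69-fold with overlapping arrays. The part of tissue borders in these differences was not tested. Egr1, an immediate early gene, read 534, 549 and 901 in midbrain and 290, 363 and 421 in medulla (1.64-fold, adjusted p = 0.00102), with its highest value on KO sham midbrain 2. Of 19 such genes 3 passed (15.8%, with 10% of all genes), or 1 with a pseudocount of 1.

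**Figure D4:**
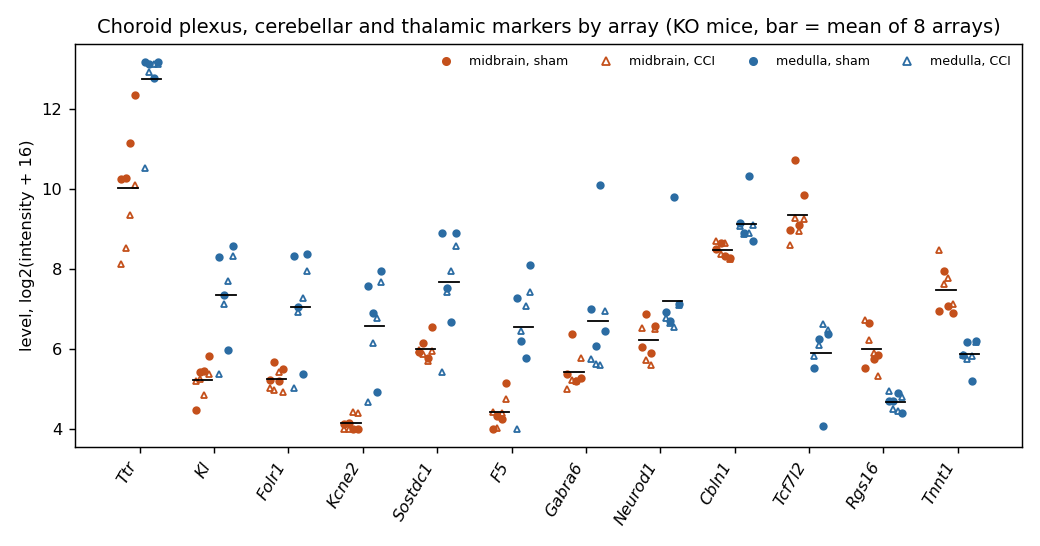
Log2 level (y axis) of choroid plexus genes (Ttr to F5), cerebellar genes (Gabra6, Neurod1, Cbln1) and genes expressed in thalamus (Tcf7l2, Rgs16, Tnnt1) on each KO array, midbrain in orange and medulla in blue, circles for sham and triangles for CCI mice, bars at the mean of 8 arrays. A single medulla array, KO sham medulla 3, lies apart for Gabra6 and Neurod1, and KO CCI medulla 1 lies near the midbrain arrays for the choroid plexus genes.

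**Figure D5:**
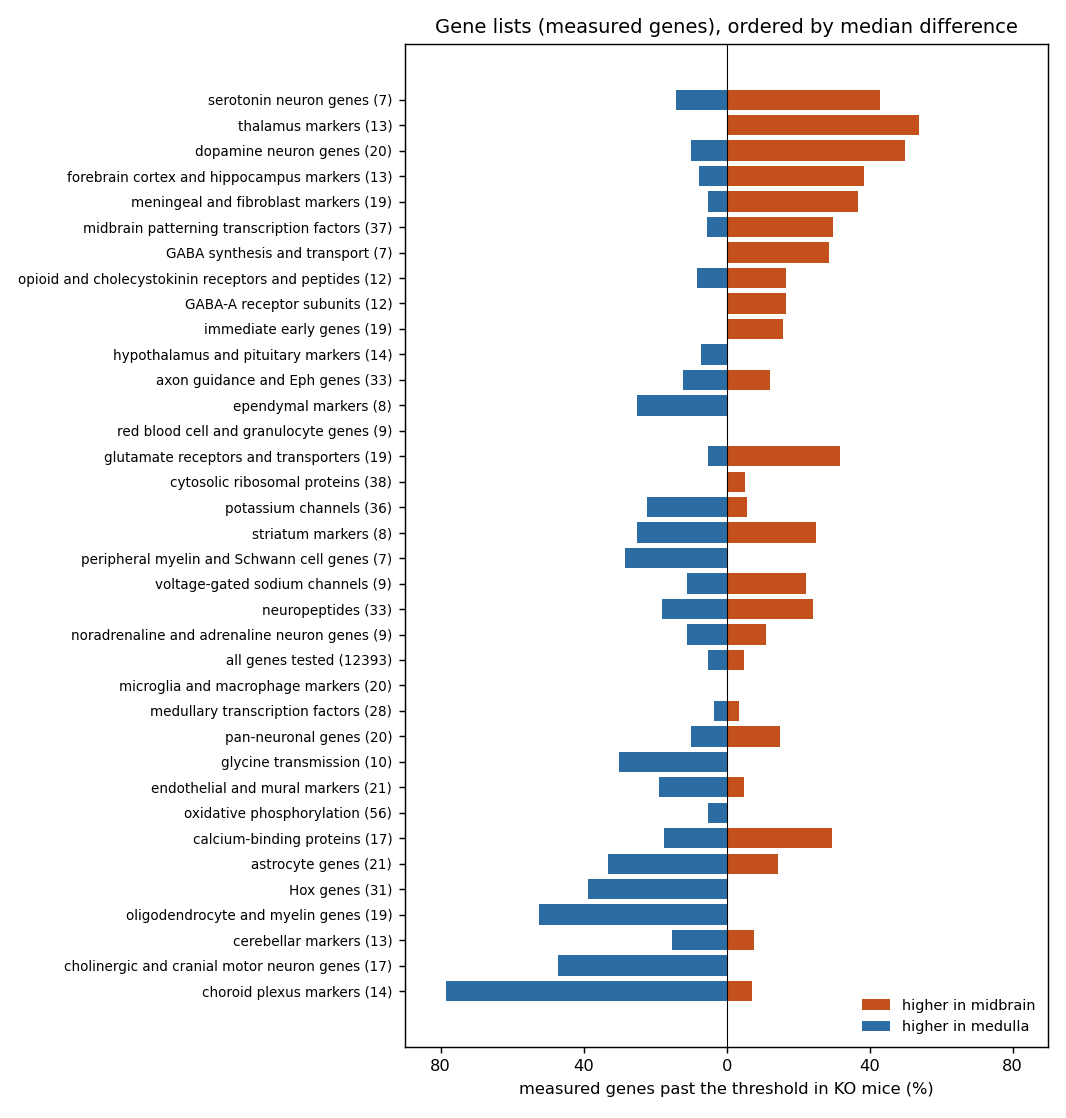
Share of the measured genes of 35 lists, and of all 12393 genes, that passed in KO mice (x axis, percent), drawn to the right where midbrain was higher and to the left where medulla was higher. Choroid plexus markers reach furthest to the left, and microglia markers and red cell genes have no bar.

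Whether the regional difference itself changed with the operation was tested as an interaction, CCI minus sham. None of 22626 probe sets passed (0.0%), with 565 at an unadjusted p under 0.05 (2.5%). The probe sets of smallest p were for Polh, a DNA polymerase (log2 interaction -0.95, SE 0.19), and Klk4, a kallikrein protease (1.04, SE 0.21), both with mean intensities under 10 and an adjusted p of 1.0. Among the genes described above, Tcf7l2 differed between the regions by 4.11 in sham and 2.77 in CCI mice (SE 0.45 each). Cartpt differed by 2.54 and 1.73 (SE 0.19 each), and Hoxa5 by -3.95 and -4.16. The sham values include the arrays that stood apart. Tcf7l2 read 1550 on KO sham midbrain 2 and -2.82 on KO sham medulla 3, where Cartpt read 89.8. Without the 3 arrays that stood apart 1 probe set passed, for the homeobox gene Gsc (-0.72, adjusted p = 0.0175).

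Whether it differed from that of control mice was tested as a region by genotype interaction over all 32 arrays. None of 22626 probe sets passed (0.0%), with 861 at an unadjusted p under 0.05 (3.81%) and a lowest adjusted p of 0.941. Siglecf (log2 interaction -0.52, SE 0.11) and Il31ra (0.61, SE 0.14) had the smallest p. Control mice, whose arrays are not those of the KO comparison, had 2231 probe sets (9.86%) and 1469 genes (11.9%) called. These calls came from the fit over all 32 arrays, so their spread was estimated partly from the KO arrays. In that fit 3103 probe sets passed in KO mice, against 1874 with the KO arrays alone. The control count is therefore not to be set against 1874, and the overlaps that follow are not between independent tests. Of the 1239 genes called in KO mice 919 were called in the same direction in control mice, which is 74.2% of the KO calls and 62.6% of the 1469 control calls, and 0 in the opposite direction. Of the 84 genes that differed at least 2-fold in KO mice 82 were called in control mice, the others being Cyp4a12a and Krt19, and neither interaction passed. Slc6a3 differed by 4.64 in KO and 4.86 in control mice, Th by 1.97 and 1.91, Hoxa5 by -4.06 and -4.08, Cartpt by 2.13 and 2.27 and Cck by 0.88 and 0.72. Without KO sham midbrain 2 and 4 the interaction passed at 1 probe set, for Gsc (0.38, adjusted p = 0.00584).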

How the data were processed

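The arrays were hybridised with biotin-labelled cRNA made from 4 ug of Trizol-extracted RNA, per the labels' protocols. The authors' deposited table gave 1 intensity per probe set and array on a linear scale, with some values below 0; array medians were already close to each other. The summarisation software, its version and the genome build are not given in the sources used here. Values under 0 were set to 0, 16 was added, log2 was taken and all 32 arrays were quantile normalized. This pseudocount understates the differences of dim genes. The 64 AFFX probe sets were left out and 22626 were tested with no filter, of which 20380 carried 1 gene symbol in the platform annotation, 691 several and 1555 none. A gene is read on its probe set of highest mean level. The dimmer probe set of Aqp4, Kl, Scn3b and Scn8a did not pass. Of the dimmer probe sets of Plxnc1, Rgs16, Cbln1, Slc1a3 and Fmod, some passed in the same direction and some did not. Intensities in the text are as deposited, while log2 differences and folds are from the normalized values, and a fold is printed only where the lower regional mean is at least 32.

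A mean per group was fitted to the 16 KO arrays (32 for comparisons with control mice) with limma 3.58.1 in R 4.3.3, and p-values of its moderated test were adjusted by Benjamini and Hochberg over all probe sets. The threshold was an adjusted p under 0.05. On simulated data with the spread of these 16 arrays (22626 probe sets), the fit recovered 95% of 100 changes of log2 size 1 and 48% of 100 of size 0.5. Of its 153 calls 10 were false. With the animal as a block 91% and 40% were recovered, and 14 of 145 calls were false. Each simulated animal shifted all probe sets of its arrays by the same amount. The simulation changed far fewer probe sets than were called here. Its noise was normal, without arrays that stand apart, so recovery in the real data can differ.

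The members and the 35 gene lists were chosen with earlier results of these data known. The naming rule took 15 genes per direction whose arrays do not overlap, up to 4 per list and direction, each list's brightest gene, all Hox genes and Cckbr, in all 177 genes. Of the 116 given in detail, 21 lie outside it and were chosen after their values were seen, as were the 4 promoter motifs, out of 18 looked at. Gsc, Cyp4a12a and Krt19 were also named after their values were seen.

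Consecutive array numbers in the descriptions pair the regions of an animal. Residuals of such pairs correlated at -0.0497 to 0.323 (mean 0.177, 8 animals), and pairs by title number at a mean of 0.121; titles and array numbers disagree for KO sham 3 and 4. Alternatives changed the normalization (median centring or none), the pseudocount (1 or 64), the variance (trended, robust), the probe sets tested (without the dimmest 33.3%, or 1 for each gene) and the arrays (within an array code, all 32, some omitted), or added a block.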

Additional observations from a re-analysis of the deposited data

Results flagged for a closer look

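Within the 4 groups of 4 arrays, the highest or lowest array was checked for its distance from the other 3, for the 116 genes given in detail. Of 464 sets of 4 arrays, 33 (7.11%) had an array whose gap to the nearest other took up most of the range, past the 95% critical value of Dixon's test. Chance alone flags about 1 in 20 such sets. Values here are log2 levels after normalization, and none of these patterns was explained or tested further. Some flags depend on the normalization. As deposited, KO sham midbrain 2 was not the highest of its group for Slc18a3, Gad1 or Kcnab1, nor was KO CCI medulla 1 for Nefh. KO sham midbrain 2 was high for Drd2 (7.31, with 6.56 to 6.65 on the others), Tal1 (7.78, with 7.14 to 7.22 on the others), Slc18a3 (5.64, with 5.52 to 5.53 on the others), Gad1 (11.11, with 10.99 to 11 on the others), Gabra6 (6.36, with 5.19 to 5.37 on the others), Grp (7.15, with 6.75 to 6.82 on the others), Kcnab1 (8.74, with 8.69 to 8.69 on the others) and Tnnt1 (7.94, with 6.89 to 7.07 on the others). It was low for Cckbr (4.00, with 4.74 to 4.84 on the others). KO sham medulla 3 was high for Lbx1 (7.03, with 6.58 to 6.63 on the others), Gria1 (9.48, with 8.72 to 8.84 on the others) and Neurod1 (9.81, with 6.69 to 7.12 on the others). It was low for Dbh (5.75, with 7.08 to 7.28 on the others), Hoxc9 (4.07, with 5.80 to 5.98 on the others), Cartpt (6.80, with 7.42 to 7.49 on the others) and Ttr (12.77, with 13.13 to 13.17 on the others). KO CCI medulla 1 was high for Nefh (11.65, with 11.63 to 11.63 on the others). It was low for Tal1 (5.55, with 5.94 to 6.02 on the others), Hoxb7 (4.84, with 6.32 to 6.56 on the others) and Ttr (10.53, with 12.93 to 13.13 on the others). KO sham medulla 4 was high for Gabrb1 (9.35, with 8.96 to 8.99 on the others). It was low for Htr5b (5.21, with 6.26 to 6.31 on the others) and Hoxb6 (5.57, with 7.77 to 8.12 on the others). KO CCI medulla 4 was high for Gabra6 (6.94, with 5.60 to 5.74 on the others). It was low for Ddc (8.18, with 8.58 to 8.59 on the others). KO CCI medulla 2 was high for Foxa2 (4.93, with 4.62 to 4.66 on the others) and Foxa1 (4.45, with 4.28 to 4.30 on the others). KO CCI midbrain 1 was high for Hoxb5 (4.80, with 4.00 to 4.00 on the others). As deposited, Hoxb5 was negative on those others (-12.6, -6.98 and -1.29), and the processing set such values to the same floor. That floor fixed the gap, and KO CCI midbrain 1 itself read 11.6, near background. KO CCI midbrain 1 was low for Penk (8.64, with 8.92 to 8.97 on the others). KO sham medulla 2 was high for Phox2a (5.96, with 5.44 to 5.52 on the others) and Plxnc1 (7.19, with 6.98 to 7.0 on the others). KO sham midbrain 1 was low for Gata3 (6.98, with 7.44 to 7.52 on the others). KO CCI midbrain 3 was high for Chodl (6.91, with 6.36 to 6.40 on the others).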

How the results depend on the processing

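Median centring, no normalization, a pseudocount of 1 or 64, the filter on dim probe sets, the trended robust variance, the array code as a block and 1 probe set per gene each left the 3 counts of calls within 1.5 times of the stated 1874, 678 and 555. With the replicate block by animal the counts were 2432, 880 and 642, and with the block by title number 1763, 644 and 502; apart from Cbln1, Phox2a and Pnmt, the pairing by animal changed no call of a gene given in detail. Within the lower array code alone 323, 55 and 39 probe sets passed, and within the higher code 139, 5 and 9, each from 8 arrays. With all 32 arrays in the fit, 3103, 1604 and 1079 passed. Without KO sham midbrain 2 and 4 the region by genotype interaction passed at 1 probe set instead of 0. Without those arrays and KO sham medulla 3, chosen after seeing the data, 3217 passed in KO mice and 1260 in CCI mice, and each interaction passed at 1. Leaving out each array in turn gave 1371 to 2365 in KO mice, 500 to 884 in sham mice and 317 to 784 in CCI mice. The count in CCI mice fell by over 1.5 times without KO CCI medulla 1 (360), 2 (343) or 3 (317) and without KO CCI midbrain 2 (349), 3 (357) or 4 (344). These fits had fewer arrays than the main fit, and the causes of the falls were not tested. Over the 116 genes no alternative reversed a call, 3367 of their alternative values kept direction and side of the threshold, 175 lost the call and 15 gained one. Probe sets near background limit the log2 differences of genes at 0 in a region.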

Other observations

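Other gene groups passed at smaller shares or in few members. Of 56 oxidative phosphorylation genes 3 were higher in medulla and 0 in midbrain (5.36% called), and of 38 cytosolic ribosomal protein genes 2 were higher in midbrain (5.26%), with 10% of all genes called. The ribosomal count was 0 under median centring or no normalization and 5 with a pseudocount of 64, and the oxidative phosphorylation count was 6 without KO sham medulla 3. Ependymal markers passed at 2 of 8, Foxj1, the master factor of motile cilia (log2 difference -0.57), and Mia (-0.61), both higher in medulla. Of 14 hypothalamus and pituitary markers Gh passed, with a log2 difference of -0.43, and 0 passed with the animal as a block. Of 8 striatum markers, Tac1 and Rgs9 were higher in midbrain and Penk and Ppp1r1b, the dopamine-regulated phosphatase inhibitor (-0.55), in medulla. Of 7 peripheral myelin genes Sox10 and Pmp22 were higher in medulla, by -0.49 and -0.54, and both are also made by oligodendrocytes.

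Within the pan-neuronal list, Gap43, the growth cone protein, Stx1a, a presynaptic SNARE, and Vamp2, its vesicle partner, were higher in midbrain by log2 differences of 0.76, 0.65 and 0.64, while Snap25, the remaining partner of that complex, and Tubb3 were higher in medulla, by -0.24 and -0.21. The list had 0 medulla calls without KO sham midbrain 2 and 4 and 1 with the animal as a block.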
